A study of Mus musculus with 8 samples.

Results

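Cholesterol is built from acetyl-CoA through the mevalonate pathway, which yields farnesyl diphosphate, and then through squalene and lanosterol. Cytosolic fatty acids are built from the same precursor by fatty acid synthase, and are then lengthened and desaturated. Transcription of both sets of enzymes is driven by the sterol regulatory element-binding proteins, SREBPs, which SCAP escorts out of the endoplasmic reticulum and INSIG proteins hold back when sterols are plentiful. Brain cholesterol is made locally, because plasma lipoproteins do not cross the blood-brain barrier in useful amounts, and both glia and neurons hold the enzymes.

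The members considered here are 33 mouse genes, chosen by symbol as genes of these pathways, with earlier results of these data known. They fall into 5 roles, which are 7 mevalonate pathway enzymes, 11 enzymes from squalene to cholesterol, 6 genes of the SREBP system and sterol transport, 3 enzymes of fatty acid synthesis and 6 desaturases and elongases. A gene was measured by its brightest probe set among those annotated to that symbol alone. This gave 32 of the 33, among 19938 genes in all. Acat2, the cytosolic acetoacetyl-CoA thiolase, was not analysed here. All 32 passed the level filter, a log2 signal of 6.82, as did 12452 genes in all.

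The RNA came from the suprachiasmatic nucleus (SCN), the hypothalamic seat of the central circadian clock, and was hybridised to whole-transcript arrays. The 4 groups were Gpr176-/- mice at circadian time 18 (CT18, subjective night), Gpr176-/- mice at CT6 (subjective day), wild-type mice at CT18 and wild-type mice at CT6. All were C57BL/6J by their labels, had lived under 12 h of light and 12 h of dark for over 2 weeks, and were then held in constant darkness. The receptor made from Gpr176 is a G protein-coupled one with no agreed ligand, and the labels say no more of the deletion. Age and sex were not given in the sources used here. There were 2 pools per group, lettered A and B, with laser-cut SCN from 10 animals in each pool and 1 array per pool. A value is therefore an average over animals and over all cell types in the cut, and a lower level through fewer cells of a type or through less RNA per cell cannot be told apart.

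The labels were checked on genes that define them. Gpr176 lay between 8.02 and 8.56 in the 4 knockout pools, against 9.31 to 9.87 in the 4 wild-type pools. Per1, a day-phase clock gene, lay between 8.09 and 8.30 at CT18, against 9.83 to 9.94 at CT6. All 12 SCN neuron markers on the list used here passed the level filter. So did 12452 of 19938 genes, and all 11 astrocyte and all 11 oligodendrocyte markers measured, so this does not check the tissue. The 2 pools of a group correlated at r = 0.996 to 0.998 over all probe sets, which describes probe sets and not replicates. Signals are log2 values, and the signal of one probe set cannot be ranked against that of another.

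Several cholesterol enzymes were higher in the SCN at subjective night, and none of the fatty acid enzymes passed. Over both genotypes, 7 of the 32 genes were called higher at CT18 than at CT6, and 0 were called lower. They were Sqle, Fdft1, Msmo1, Fdps, Stard4, Mvk and Srebf2, with rises of 0.31 to 0.14 on the log2 scale. In fold terms these ran from 1.24 for Sqle to 1.10 for Srebf2. The threshold for a call was 0.05 for limma's p after Benjamini-Hochberg adjustment over all genes tested. The members called higher were 21.9% of 32, beside 10.0% of all genes tested, and 6.79% of all genes were called lower. Since the members were chosen with earlier results of these data known, the larger share is not independent support. The median difference of the 32 was 0.0364, beside 0.0104 over all genes tested. In 6 of the 32 all 4 CT18 pools lay above all 4 CT6 pools, which held for 12.6% of all genes. In another 2, Dhcr7 and Fasn, all CT18 pools lay below, as for 8.30% of all genes.

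**Figure D1:**
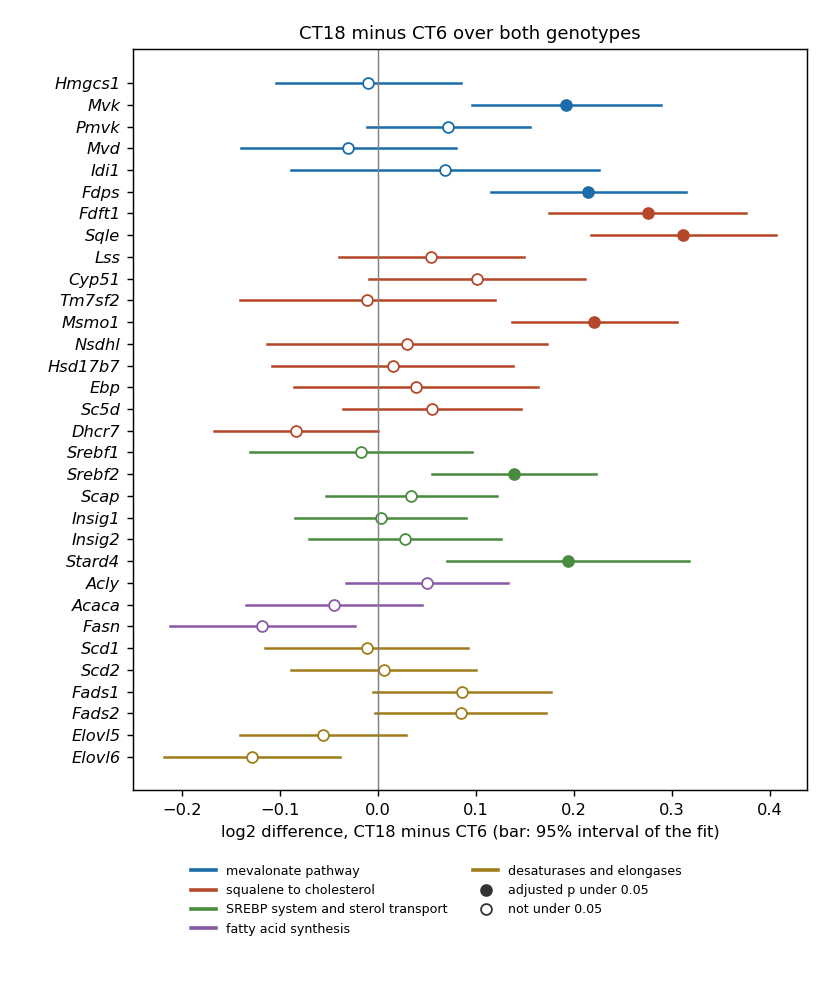
Log2 difference of CT18 minus CT6 over both genotypes for each of 32 genes, with 95% intervals of the limma fit, coloured by role; filled points passed at an adjusted p under 0.05. The 7 filled points all lie to the right of 0, between 0.14 and 0.31, and none belongs to fatty acid synthesis, the desaturases or the elongases.

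Of the 11 enzymes from squalene to cholesterol, 3 were called higher at CT18. Sqle, squalene epoxidase, which makes the first oxygenated intermediate, had log2 signals of 9.88 and 9.96 in Gpr176-/- at CT18, 9.65 and 9.66 in Gpr176-/- at CT6, 10.06 and 9.94 in wild type at CT18, and 9.67 and 9.61 in wild type at CT6. Every CT18 pool lay above every CT6 pool. The difference was 0.31 ± 0.0423 (standard error, limma, 4 pools at each time, adjusted p = 0.00102). Fdft1, squalene synthase, which joins 2 farnesyl diphosphates and commits carbon to sterols, had 11.51 and 11.56 in Gpr176-/- at CT18, 11.26 and 11.27 in Gpr176-/- at CT6, 11.69 and 11.55 in wild type at CT18, and 11.38 and 11.29 in wild type at CT6. The times did not overlap here either, and the difference was 0.28 ± 0.0449 (limma, adjusted p = 0.00293). A second probe set of Fdft1, not used in the test, gave 0.31. Msmo1, the methylsterol monooxygenase that begins removal of the C4 methyl groups, had 10.58 and 10.66 in Gpr176-/- at CT18, 10.42 and 10.42 in Gpr176-/- at CT6, 10.68 and 10.64 in wild type at CT18, and 10.42 and 10.42 in wild type at CT6. Its 4 CT6 pools were alike to within 0.01, and the CT18 pools were all higher, by 0.22 ± 0.0377 on average (limma, adjusted p = 0.00369).

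The other 8 enzymes from squalene to cholesterol did not pass. Lss, lanosterol synthase, which closes the sterol rings, had 8.61 and 8.66 in Gpr176-/- at CT18, 8.57 and 8.59 in Gpr176-/- at CT6, 8.74 and 8.62 in wild type at CT18, and 8.60 and 8.66 in wild type at CT6. Its times overlapped, with a difference of 0.05 ± 0.0421 (limma, adjusted p = 0.432). Cyp51, the lanosterol demethylase, had 8.96 and 9.14 in Gpr176-/- at CT18, 8.92 and 8.99 in Gpr176-/- at CT6, 9.28 and 9.17 in wild type at CT18, and 9.13 and 9.10 in wild type at CT6. The difference was 0.10 ± 0.0494 (limma, adjusted p = 0.202), and the times overlapped. Tm7sf2, a sterol reductase, Nsdhl and Hsd17b7, which complete removal of the C4 methyl groups, Ebp, the sterol isomerase, and Sc5d, the desaturase, stood between -0.01 and 0.05. Dhcr7, which makes cholesterol from 7-dehydrocholesterol, stood at -0.08 ± 0.0374 (limma, adjusted p = 0.165). It had 8.64 and 8.68 in Gpr176-/- at CT18, 8.75 and 8.74 in Gpr176-/- at CT6, 8.71 and 8.64 in wild type at CT18, and 8.75 and 8.76 in wild type at CT6, so that all its CT18 pools lay below all its CT6 pools.

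In the mevalonate pathway 2 of 6 genes rose. Fdps, farnesyl diphosphate synthase, the enzyme just before squalene synthase, had 9.94 and 10.01 in Gpr176-/- at CT18, 9.82 and 9.73 in Gpr176-/- at CT6, 9.88 and 9.92 in wild type at CT18, and 9.61 and 9.74 in wild type at CT6. All CT18 pools lay above all CT6 pools, by 0.21 ± 0.0443 (limma, adjusted p = 0.00972). Mvk, mevalonate kinase, had 8.63 and 8.65 in Gpr176-/- at CT18, 8.42 and 8.36 in Gpr176-/- at CT6, 8.46 and 8.54 in wild type at CT18, and 8.31 and 8.42 in wild type at CT6. The rise was 0.19 ± 0.0431 (limma, adjusted p = 0.0143), and the highest pools were the knockout ones at CT18. Hmgcs1, the cytosolic HMG-CoA synthase at the head of the pathway, had 10.23 and 10.27 in Gpr176-/- at CT18, 10.22 and 10.27 in Gpr176-/- at CT6, 10.34 and 10.25 in wild type at CT18, and 10.27 and 10.36 in wild type at CT6. No separation by time was seen, with a difference of -0.01 and a 95% interval of -0.104 to 0.0845. Pmvk, phosphomevalonate kinase, had 7.41 and 7.45 in Gpr176-/- at CT18, 7.31 and 7.34 in Gpr176-/- at CT6, 7.38 and 7.34 in wild type at CT18, and 7.30 and 7.35 in wild type at CT6, a difference of 0.07 ± 0.0371 (limma, adjusted p = 0.227). Mvd, mevalonate diphosphate decarboxylase, stood at -0.03 and Idi1, isopentenyl diphosphate isomerase, at 0.07, with standard errors of 0.0490 and 0.0703. The second probe set of Idi1 gave 0.06.

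Among the regulators Srebf2 rose. Srebf2 encodes SREBP2, the SREBP that mainly drives cholesterol genes, and is itself among its targets. It had 10.34 and 10.41 in Gpr176-/- at CT18, 10.25 and 10.21 in Gpr176-/- at CT6, 10.40 and 10.37 in wild type at CT18, and 10.26 and 10.26 in wild type at CT6. The groups did not overlap by time and the difference was 0.14 ± 0.0372 (limma, adjusted p = 0.0310). Stard4, a cytosolic sterol carrier, had 7.47 and 7.70 in Gpr176-/- at CT18, 7.49 and 7.45 in Gpr176-/- at CT6, 7.70 and 7.67 in wild type at CT18, and 7.35 and 7.47 in wild type at CT6. One knockout CT18 pool sat among the CT6 values, and the rise was 0.19 ± 0.0552 (limma, adjusted p = 0.0390).

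Srebf1, whose SREBP1c product mainly drives fatty acid genes, had 8.72 and 8.94 in Gpr176-/- at CT18, 8.87 and 8.88 in Gpr176-/- at CT6, 8.83 and 8.87 in wild type at CT18, and 8.86 and 8.81 in wild type at CT6. The lowest and the highest of these 8 values were the A and B pools of one group, Gpr176-/- at CT18. The difference between times was -0.02 ± 0.0505. Insig1, which retains SCAP and is a strong SREBP target in other tissues, had 10.72 and 10.79 in Gpr176-/- at CT18, 10.75 and 10.74 in Gpr176-/- at CT6, 10.83 and 10.76 in wild type at CT18, and 10.79 and 10.81 in wild type at CT6. It differed by 0.00 between the times, with a 95% interval of -0.0842 to 0.0900. Insig2, its paralog, had 9.56 and 9.70 in Gpr176-/- at CT18, 9.56 and 9.61 in Gpr176-/- at CT6, 9.65 and 9.63 in wild type at CT18, and 9.60 and 9.67 in wild type at CT6. Scap, the SREBP escort, had 9.34 and 9.37 in Gpr176-/- at CT18, 9.37 and 9.28 in Gpr176-/- at CT6, 9.39 and 9.42 in wild type at CT18, and 9.35 and 9.39 in wild type at CT6. Their differences were 0.03 each, and the times overlapped.

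**Figure D2:**
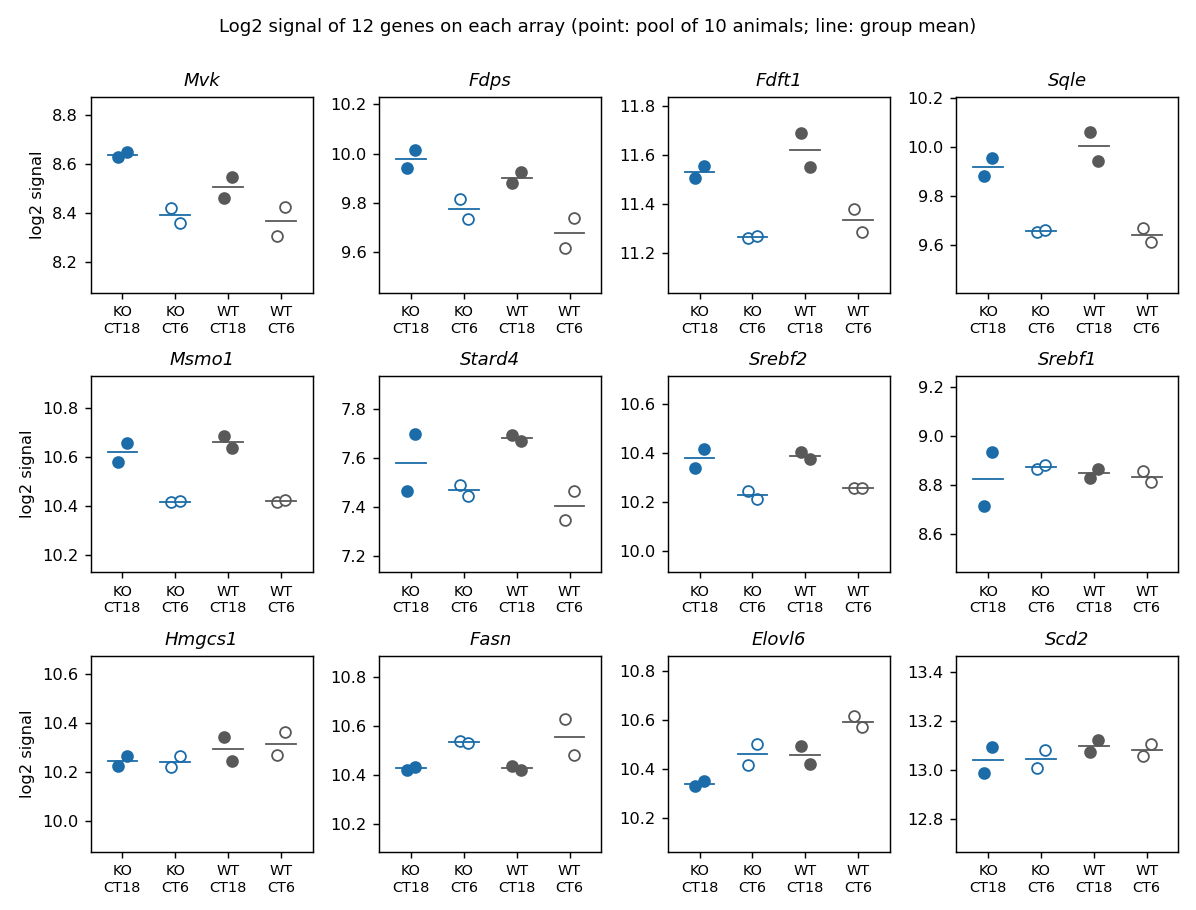
Log2 signal of 12 genes on each of the 8 arrays, by group, with the group mean as a line and the same axis span in every panel; CT18 is filled, CT6 open, knockout blue and wild type grey. Sqle, Fdft1, Msmo1, Fdps, Mvk and Srebf2 have all CT18 points above all CT6 points, whereas Hmgcs1, Srebf1 and Scd2 overlap.

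The calls of the night rise differed in how well they stood up to leaving out arrays. Sqle, Fdft1, Msmo1 and Fdps passed under all 17 alternative settings tried, with highest adjusted p-values of 0.0110, 0.0259, 0.0278 and 0.0418 (limma). Without wild type at CT6 A, without wild type at CT18 B or without Gpr176-/- at CT18 B, these 4 were the genes called. Mvk missed the threshold in those 3 fits (limma, adjusted p = 0.0513, 0.0538 and 0.0507). Srebf2 did not pass in 7 of the 8 fits that left out 1 array, the exception being Gpr176-/- at CT18 A, and its highest adjusted p among all settings was 0.110. It also missed the threshold with values as deposited, with median centring and with no filter on dim genes (limma, adjusted p = 0.0525, 0.0709 and 0.0511). Among the same 8 fits Stard4 likewise passed only without that array (limma, adjusted p = 0.0116), and it reached 0.123 without wild type at CT6 A. With no filter its adjusted p was 0.0703. All 7 genes kept a positive difference in all 17 settings.

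Fatty acid enzymes showed 0 of 9 calls in either direction, with 2 at an unadjusted p under 0.05. Of all genes tested, 10.0% were called higher and 6.79% lower, and the share under that unadjusted p was not counted. With 9 genes a count of 0 is not far from these shares, and a difference between the roles was not tested. Acly, ATP citrate lyase, which supplies cytosolic acetyl-CoA, had 9.34 and 9.39 in Gpr176-/- at CT18, 9.30 and 9.27 in Gpr176-/- at CT6, 9.29 and 9.28 in wild type at CT18, and 9.24 and 9.29 in wild type at CT6, a difference of 0.05 ± 0.0369. Acaca, acetyl-CoA carboxylase 1, which makes malonyl-CoA, had 9.41 and 9.36 in Gpr176-/- at CT18, 9.47 and 9.43 in Gpr176-/- at CT6, 9.51 and 9.41 in wild type at CT18, and 9.49 and 9.47 in wild type at CT6, a difference of -0.04 ± 0.0399. Fasn, fatty acid synthase, had 10.42 and 10.43 in Gpr176-/- at CT18, 10.54 and 10.53 in Gpr176-/- at CT6, 10.44 and 10.42 in wild type at CT18, and 10.63 and 10.48 in wild type at CT6. All its CT18 pools lay below all its CT6 pools, by -0.12 ± 0.0422, but it did not pass (limma, adjusted p = 0.0882). It did pass without wild type at CT6 B, where the adjusted p was 0.0447.

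Elovl6, the elongase that takes palmitate to stearate, had 10.33 and 10.35 in Gpr176-/- at CT18, 10.42 and 10.50 in Gpr176-/- at CT6, 10.49 and 10.42 in wild type at CT18, and 10.62 and 10.57 in wild type at CT6. It stood at -0.13 ± 0.0402 (limma, adjusted p = 0.0559), and wild-type pools at CT18 overlapped knockout pools at CT6. Elovl5, which lengthens polyunsaturated fatty acids, stood at -0.06 ± 0.0378. The stearoyl-CoA desaturases Scd1 and Scd2, which introduce the first double bond, overlapped between the times. Scd2, the main form in brain, had 12.99 and 13.10 in Gpr176-/- at CT18, 13.01 and 13.08 in Gpr176-/- at CT6, 13.07 and 13.12 in wild type at CT18, and 13.06 and 13.11 in wild type at CT6. Scd1, the form best known from liver and skin, had 12.03 and 12.14 in Gpr176-/- at CT18, 12.06 and 12.13 in Gpr176-/- at CT6, 12.18 and 12.05 in wild type at CT18, and 12.11 and 12.15 in wild type at CT6. Their differences were 0.01 and -0.01, with 95% intervals of -0.0884 to 0.10 and -0.115 to 0.0923. As close paralogs they may share hybridising sequence, which was not tested.

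Fads1 and Fads2, the delta-5 and delta-6 desaturases of polyunsaturated fatty acids, did not pass either. Fads1 had 11.85 and 11.96 in Gpr176-/- at CT18, 11.83 and 11.84 in Gpr176-/- at CT6, 12.05 and 11.97 in wild type at CT18, and 11.90 and 11.91 in wild type at CT6. Fads2 had 11.63 and 11.74 in Gpr176-/- at CT18, 11.59 and 11.59 in Gpr176-/- at CT6, 11.76 and 11.74 in wild type at CT18, and 11.68 and 11.67 in wild type at CT6. They stood at 0.09 ± 0.0405 and 0.08 ± 0.0389 (limma, adjusted p = 0.190 and 0.178). With values as deposited the difference was 0.02 for Fads1 and 0.07 for Fads2. These 2 genes are next to each other in the order of protein-coding genes on chromosome 19, and Scd1 and Scd2 lie 2 places apart on the same chromosome. The 33 genes spread over 15 chromosomes, and 0 of them lie on chromosome 2, which carries Gpr176.

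Promoter sequence was available for 26 of the 33 genes, from RefSeq windows of GRCm38.p6 that span 250 bases before to 50 after each transcript start. Fdps, Fdft1, Sqle, Stard4, Scd1, Scd2 and Fads1 were not matched. The windows of Mvk, Msmo1 and Srebf2, the other 3 genes called higher, are shown for that shared call over both genotypes. Whether these genes move together was not tested. The window of Hmgcs1 is shown beside these because it held the only match to the sterol element letters searched, TCACNCCAC, and its gene did not pass by time. Both strands were searched, and capitals mark CCAAT boxes (CCAAT or its complement ATTGG) and, in Hmgcs1, the element TCACCCCAC. Mvk is on the plus strand at chr5:114444019-114444318, Msmo1 on the minus strand at chr8:64733529-64733828, Srebf2 on the plus strand at chr15:82147019-82147318 and Hmgcs1 on the plus strand at chr13:119690101-119690400. Each is written 5′ to 3′ on the gene's strand.
Mvk: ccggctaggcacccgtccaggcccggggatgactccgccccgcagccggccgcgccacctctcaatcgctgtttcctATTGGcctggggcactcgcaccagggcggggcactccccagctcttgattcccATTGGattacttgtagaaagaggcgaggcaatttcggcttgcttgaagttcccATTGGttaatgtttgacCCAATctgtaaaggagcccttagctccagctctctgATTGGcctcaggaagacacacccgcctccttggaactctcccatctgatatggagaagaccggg
Msmo1: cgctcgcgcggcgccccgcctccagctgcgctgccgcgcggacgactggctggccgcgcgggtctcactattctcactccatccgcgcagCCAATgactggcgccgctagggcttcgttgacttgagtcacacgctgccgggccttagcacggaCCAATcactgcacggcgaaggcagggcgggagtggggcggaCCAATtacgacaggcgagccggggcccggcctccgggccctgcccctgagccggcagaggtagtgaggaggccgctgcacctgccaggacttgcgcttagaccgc
Srebf2: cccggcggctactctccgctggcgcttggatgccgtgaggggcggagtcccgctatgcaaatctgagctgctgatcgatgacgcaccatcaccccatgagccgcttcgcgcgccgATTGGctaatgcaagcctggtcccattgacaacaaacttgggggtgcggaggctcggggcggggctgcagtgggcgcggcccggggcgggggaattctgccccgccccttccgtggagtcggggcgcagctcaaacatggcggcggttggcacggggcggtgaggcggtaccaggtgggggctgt
Hmgcs1: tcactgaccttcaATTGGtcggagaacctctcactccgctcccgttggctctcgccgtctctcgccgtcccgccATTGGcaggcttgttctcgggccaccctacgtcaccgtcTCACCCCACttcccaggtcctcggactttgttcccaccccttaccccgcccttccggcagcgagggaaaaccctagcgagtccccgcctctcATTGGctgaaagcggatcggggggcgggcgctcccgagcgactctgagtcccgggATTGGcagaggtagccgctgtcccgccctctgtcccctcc

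The Mvk window held 5 CCAAT boxes, that of Msmo1 3, that of Srebf2 1 and that of Hmgcs1 4. A CCAAT box was found in 21 of the 26 genes, or 80.8%, beside 42.3% of 17492 protein-coding genes with a window in the table. The Sp1 letters GGGCGG were also in 21 of 26, beside 49.2% of all. NF-Y and Sp1, the factors that read these motifs, are known partners of SREBPs at sterol promoters. The sterol element TCACNCCAC was in 1 of 26, or 3.85%, beside 1.41%. Other forms of the element were not searched, so a window without these letters may still hold one. The Srebf2 window, for example, has tcaccccat, which differs from the letters searched in its last base and was not counted. The E-box CACGTG, read by CLOCK and BMAL1, was in 6 of 26, or 23.1%, beside 8.91%. Those 6 were Dhcr7, Elovl5, Hsd17b7, Insig1, Sc5d and Scap, and 0 of them was called by time. Only 3 of the 7 genes called higher had a window, so this count cannot relate E-boxes to the night rise. The D-box TTANGTAA was in 0 of 26, beside 2.64% of all, and the cAMP response element TGACGTCA in 1, Elovl5, beside 2.54%. For a gene with several windows a match in any counted, for members and for all genes alike. The genes set beside the members were not limited to those that passed the level filter, as the measured members all did. Whether the larger shares are particular to these pathways was not tested. These are letter matches in short windows, and no binding was measured.

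Within Gpr176-/- mice the night rise was seen in 3 of the 32 genes, Fdft1, Sqle and Mvk. The share of all genes called higher in the knockout was 3.63%, and 3.53% were called lower. Fdft1 rose by 0.26 ± 0.0634, Sqle by 0.26 ± 0.0598 and Mvk by 0.25 ± 0.0609 (limma, 2 pools at each time, adjusted p = 0.0366, 0.0301 and 0.0410). With any 1 of the 4 knockout pools left out, 0 of the 32 genes were called. The count was also 0 with values as deposited, with values centred on array medians and with no filter on dim genes.

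Within wild-type mice 3 of the 32 genes were again called higher, Sqle, Fdft1 and Msmo1, beside 4.40% of all genes called higher and 2.54% lower. Sqle rose by 0.36 ± 0.0598, Fdft1 by 0.29 ± 0.0634 and Msmo1 by 0.24 ± 0.0533 (limma, 2 pools at each time, adjusted p = 0.00698, 0.0256 and 0.0250). The count was 0 without wild type at CT6 B or at CT18 A, and 1 without wild type at CT6 A.

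The remaining genes of the pooled call stood on the same side in both genotypes. Msmo1 had a difference of 0.20 in Gpr176-/- (limma, adjusted p = 0.0535). Fdps had 0.20 in Gpr176-/- and 0.23 in wild type (limma, adjusted p = 0.0860 and 0.0633). Srebf2 had 0.15 and 0.13 (limma, adjusted p = 0.133 and 0.185), and Mvk had 0.14 in wild type (limma, adjusted p = 0.224). Stard4 had 0.11 in Gpr176-/- and 0.28 in wild type (limma, adjusted p = 0.442 and 0.0677).

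The difference between the 2 genotypes' night rises was tested as an interaction. It called 0 of the 32 genes, as it did 0% of all genes, with 0 of the 32 at an unadjusted p under 0.05 in limma. Knockout minus wild type, the night rise differed by -0.10 for Sqle (95% interval -0.289 to 0.0905), by -0.02 for Fdft1 (-0.222 to 0.180) and by 0.11 for Mvk (-0.0845 to 0.302). It differed by -0.16 for Stard4 (-0.411 to 0.0834). The lowest adjusted p among the 32 was 0.944. The intervals are at least as wide as the rises themselves, so a moderately smaller or larger rise in one genotype was not detectable with 2 pools per group. The lower ends for Sqle, Fdft1 and Mvk fall short of a loss of the whole wild-type rise, which was 0.36, 0.29 and 0.14. That for Stard4, with a wild-type rise of 0.28, does not.

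**Figure D3:**
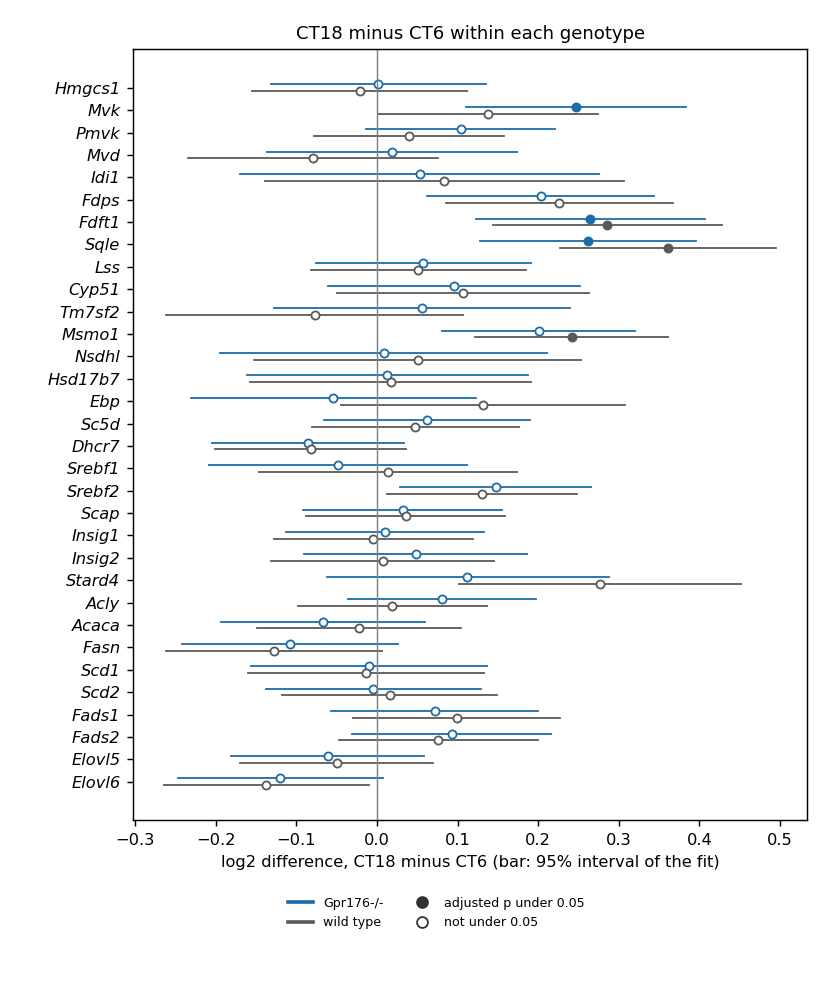
Log2 difference of CT18 minus CT6 in Gpr176-/- (blue) and wild type (grey) for each of 32 genes, with 95% intervals of the limma fit; filled points passed at an adjusted p under 0.05. Sqle and Fdft1 are filled in both genotypes, and the intervals of the genotypes overlap for every gene.

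Loss of Gpr176 changed 0 of the 32 genes past the threshold. Over both times 0.0241% of all genes were called in either direction, at CT18 0.00803% and at CT6 0.00803%. Over both times the 32 differences, knockout minus wild type, ran from -0.17 to 0.09 with a median of -0.0276, beside a median of -0.0101 over all genes tested. All 32 intervals at 95% lay within -0.279 to 0.186. Of the 32, 25 were below 0, and 43.9% of all genes were above 0.

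The enzyme furthest below was Cyp51, whose 8 values are given above. It stood at -0.17 ± 0.0494 over both times (limma, unadjusted p = 0.00696, adjusted p = 0.342), at -0.17 at CT18 and at -0.16 at CT6. Elovl6 was next at -0.13 ± 0.0402 (limma, unadjusted p = 0.0116, adjusted p = 0.353), with -0.13 at CT6. These 2 were the genes of the 32 with an unadjusted p under 0.05 over both times. At CT18 Cyp51 alone was under it, and at CT6 both were. Neither passed after adjustment, and the share of all genes under that unadjusted p was not counted. Furthest above was Fdps at 0.09, with a 95% interval of -0.0129 to 0.186. The regulators Srebf2 (-0.02), Srebf1 (0.01), Scap (-0.05), Insig1 (-0.05) and Insig2 (-0.03) had intervals that include 0. Each of these comparisons uses arrays that the comparisons by time also use.

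**Figure D4:**
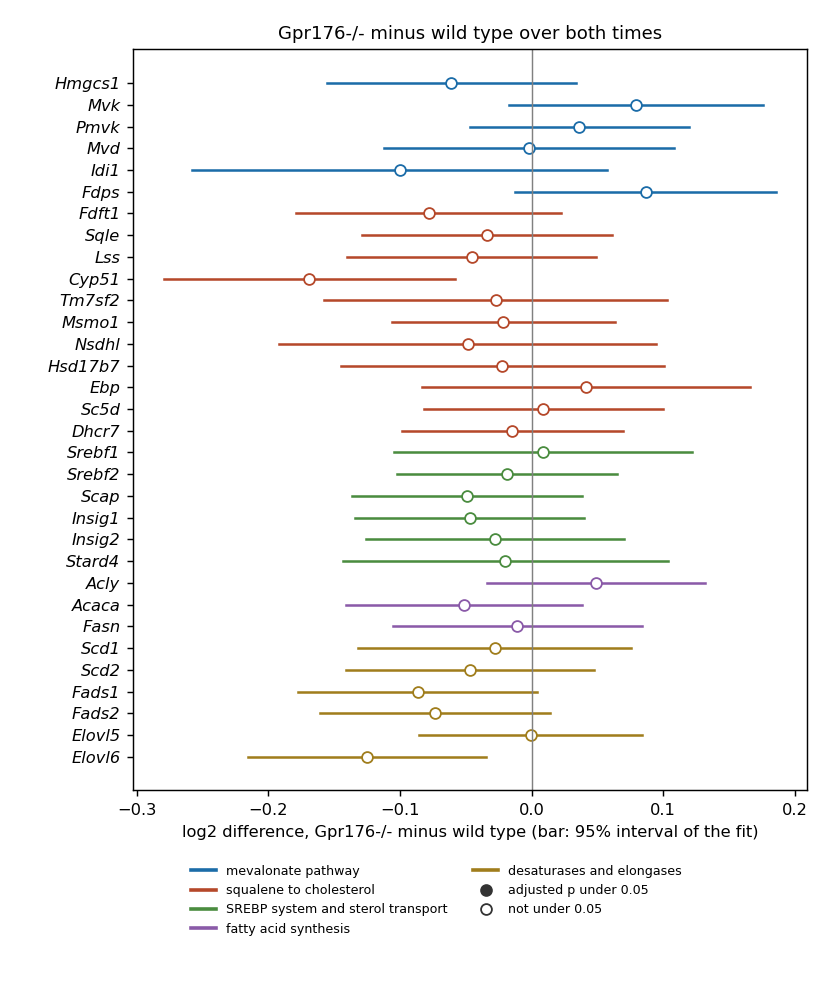
Log2 difference of Gpr176-/- minus wild type over both times for each of 32 genes, with 95% intervals of the limma fit, coloured by role; no point is filled, since none passed at an adjusted p under 0.05. Cyp51 and Elovl6 have intervals that lie wholly below 0.

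Pools of one group differed in one direction for most of the genes in 3 of the 4 groups. In Gpr176-/- at CT18 pool A lay below pool B for 29 of the 32 genes, where pool A was above pool B for 34.9% of all genes tested. In wild type at CT18 pool A lay above pool B for 26 of the 32, and for all 11 enzymes from squalene to cholesterol, beside 55.1% of all genes. In Gpr176-/- at CT6 pool A was above for 14 of the 32, beside 34.7% of all genes. In wild type at CT6 it was above for 9 of the 32 and for 0 of the 6 mevalonate genes, beside 46.3%. The median difference between pools, A minus B, was -0.0736 in Gpr176-/- at CT18, -0.00593 in Gpr176-/- at CT6, 0.0717 in wild type at CT18 and -0.0456 in wild type at CT6. Pool differences of single genes reached -0.290 (Nsdhl) and 0.28 (Idi1), nearly the size of the largest night rise. Leaving out pool A of both CT18 groups, an alternative chosen after the data were seen, left 5 of the 7 night calls, without Mvk and Srebf2.

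**Figure D5:**
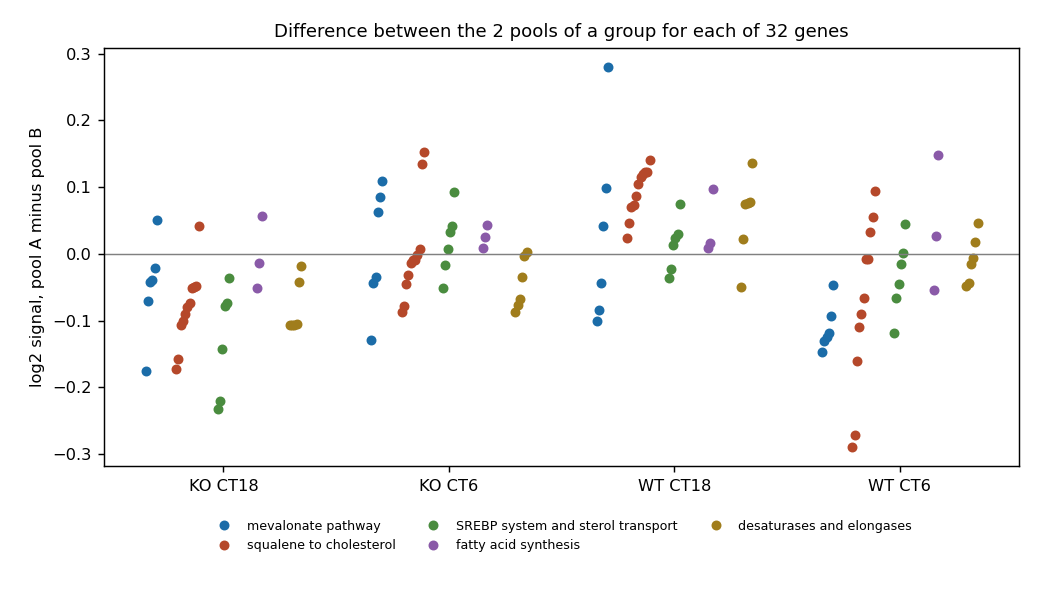
Log2 signal of pool A minus pool B in each of the 4 groups, a point for each of 32 genes, coloured by role. In KO CT18 most points lie below 0, in WT CT18 most lie above 0 and all those of the squalene to cholesterol role do. In WT CT6 23 of 32 lie below 0, among them all 6 of the mevalonate pathway, and KO CT6 is divided 14 above and 18 below.

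Markers of the cell types in the cut were read on the same arrays, as the mean log2 signal of each list. The oligodendrocyte list, of the cells that make cholesterol for myelin, had means over 11 genes of 9.36 and 9.44 in Gpr176-/- at CT18 and 9.70 and 9.53 in Gpr176-/- at CT6. In wild type it had 9.71 and 9.34 at CT18, and 9.64 and 9.77 at CT6. All 11 genes passed the level filter. At CT18 over both genotypes 0 were called higher and 3 lower, beside 10.0% and 6.79% of all genes tested. The list's mean difference was -0.20. By time it therefore stood on the other side of 0 from the 7 sterol genes. Between pools A and B it differed in the same direction as most of the 32 genes in 3 groups, and the opposite way in Gpr176-/- at CT6. The astrocyte, microglial, endothelial and mural, and leptomeningeal lists had this same pattern of signs, and the oligodendrocyte precursor list went with most of the 32 genes in all 4 groups. The ependymal and tanycyte list went the other way in wild type at CT18 (8.06 and 8.17) and in Gpr176-/- at CT6 (8.24 and 8.22). The SCN neuron list did so in wild type at CT6 (10.67 and 10.66).

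The astrocyte list of 11 genes had means of 10.61 and 10.68 in Gpr176-/- at CT18, 10.74 and 10.72 in Gpr176-/- at CT6, 10.80 and 10.70 in wild type at CT18, and 10.69 and 10.78 in wild type at CT6. Of its genes 2 were called higher and 1 lower at CT18, beside 10.0% and 6.79% of all genes tested. The same shares stand beside the counts of the lists that follow. The SCN neuron list had means from 10.37 to 10.42 at CT18, against 10.62 to 10.73 at CT6, with 3 of 12 genes called higher and 6 lower. Its mean difference was -0.28, whereas the median of its genes was -0.0772. Whether single genes of this list change with time apart from the number of neurons was not tested. The oligodendrocyte precursor list had 2 of 8 higher and 0 lower, the endothelial and mural list 0 of 10 higher and 3 lower, and the ependymal and tanycyte list 0 of 7 higher and 2 lower. The microglial list had 0 calls among 8, and the leptomeningeal list 0 among 6, with means from 6.94 to 7.64 over the 8 arrays. The part of these cell types in the night rise was not tested.

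Other genes of lipid metabolism were counted on lists made for this work. Among 31 further synthesis genes tested, 2 rose and 3 fell at CT18 over both genotypes, with a median of 0.00323. Over all genes tested, 10.0% were called higher and 6.79% lower. The 4 of these 5 with the lowest p are named. Elovl7, an elongase of very long chains, had 8.05 and 8.04 in Gpr176-/- at CT18, 8.63 and 8.52 in Gpr176-/- at CT6, 8.38 and 8.08 in wild type at CT18, and 8.47 and 8.63 in wild type at CT6, and fell by 0.42 ± 0.0672 on the log2 scale (limma, adjusted p = 0.00250). Hsd17b12, the ketoreductase of the elongation cycle, fell by 0.18. Pcyt2, of phosphatidylethanolamine synthesis, rose by 0.14, and Hacd2, a dehydratase of the elongation cycle, by 0.17. Pcyt2 and Hacd2 lost their calls under 9 and 11 of the 17 alternatives.

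Among 21 genes of sterol uptake, transport, export and turnover, 4 rose and 1 fell, with a median of 0.0220. Of all genes tested, 10.0% were called higher and 6.79% lower. Abca1, the transporter that exports cholesterol to apolipoproteins and is induced by sterol-sensing LXR receptors, had 8.77 and 8.75 in Gpr176-/- at CT18, 9.15 and 9.13 in Gpr176-/- at CT6, 8.79 and 8.76 in wild type at CT18, and 9.10 and 9.06 in wild type at CT6. All CT18 pools lay below all CT6 pools, and it fell by 0.34 ± 0.0357 on the log2 scale (limma, adjusted p = 0.000219). Abca1 was also called lower within Gpr176-/- (-0.38) and within wild type (-0.30). In wild type the Abca1 call was lost under 3 of the 17 alternatives, each with arrays left out. Its difference there ran from -0.317 to -0.258 over all settings. Cyp46a1, the neuronal cholesterol hydroxylase through which the brain disposes of cholesterol, had 9.67 and 9.67 in Gpr176-/- at CT18, 9.46 and 9.39 in Gpr176-/- at CT6, 9.68 and 9.74 in wild type at CT18, and 9.49 and 9.49 in wild type at CT6. It rose by 0.23 ± 0.0378 (limma, adjusted p = 0.00282), by 0.25 within Gpr176-/- and by 0.22 within wild type. The call over both genotypes held under all 17 alternatives. Within Gpr176-/- it was lost under 6 of them, among them leaving out any 1 knockout pool, and within wild type under 9, among them the replicate block and leaving out any 1 wild-type pool.

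Stard3, a late endosomal sterol transporter, rose by 0.22 and Lipa, the lysosomal acid lipase that frees cholesterol from its esters, by 0.18 (limma, adjusted p = 0.0173 and 0.0231), and they lost their calls under 3 and 6 of the 17 alternatives. Of 20 fatty acid oxidation genes, 2 rose, the dehydrogenase gene Acadm (0.17) and the electron carrier subunit Etfb (0.13), the same share as the 10.0% of all genes called higher. Cpt1a, which admits fatty acids to mitochondria, fell by 0.17 and was the 1 gene called lower, beside 6.79% of all genes. The list's median was -0.0186. Etfb lost its call under 12 of the 17 alternatives, and Acadm and Cpt1a under 5 each. None of these 3 lists held a gene called between knockout and wild type over both times, out of 31, 21 and 20 tested.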

How the data were processed

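RNA from 8 pools of 10 animals was measured on biotin-labelled whole-transcript arrays, with column-purified RNA, per the labels' protocols. The authors deposited a table of log2 values for 28853 probe sets. For background correction, probe summary and normalization, their methods are not given in the sources used here. Quantile normalization was applied to the 8 columns, because their lower quartiles differed by up to 0.139 (deposited medians 7.34 to 7.39). It would hide a shift shared by most genes. Of the probe sets, 21789 carried exactly 1 symbol in the platform annotation, and 21698 matched RefSeq GRCm38.p6 by Entrez number. The brightest probe set per gene by mean over 8 arrays was used, and genes under the 40th percentile of all probe sets were left out.

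Group means were fitted with limma 3.58.1 (R 4.3.3) on all 8 arrays, with 4 residual degrees of freedom and 5.58 prior ones. All 7 contrasts came from this fit, genome-wide, with Benjamini-Hochberg adjustment over 12452 genes and a threshold of 0.05. Values after ± are standard errors of the fit. The fit was tested on simulated data with noise drawn independently for each gene and array. Shifts shared by many genes of a pool, as seen here, were not simulated. The number of arrays limits the precision. The pools are separate biological replicates per the labels' design text.

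Alternatives were the deposited values, median centring, no filter, a filter at the 50th percentile, the mean of all probe sets of a gene, a variance trend, array weights, the pool letter as a block, and leaving out each array. Values per array are given for called genes, the regulators and the leading enzymes of each role. Up to 4 called genes of each further list are named, with values per array for Elovl7, Abca1 and Cyp46a1, which were picked after their values were seen. Members and lists were chosen with earlier results of these data known.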

Additional observations from a re-analysis of the deposited data

How the results depend on the processing

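The count of 7 genes called by time over both genotypes ran from 4 to 7 when 1 array was left out and from 5 to 9 under the other settings. With the replicate block, the pool letter as a term, it was 7, and the counts were 2 in Gpr176-/- and 3 in wild type. The letters were not taken to pair the pools, since A minus B differences correlated between groups at -0.222 to 0.257 over 12452 genes. The count of 3 in Gpr176-/- was 0 with values as deposited, 0 with median centring, 0 with no filter, 0 without the A arrays of both CT18 groups and 5 with a variance trend, and it ran from 0 to 3 when 1 array was left out. The count of 3 in wild type was 1 with median centring, 5 with the filter at the 50th percentile, 0 without the A arrays of both CT18 groups, and 0 to 4 when 1 array was left out. The counts of 0 between knockout and wild type and for the interaction stayed 0 under all 17 settings. The filter enters through the number of genes adjusted for, and a left-out array through the lost degree of freedom as well as its value. No gene named here changed sign while called. Genes called lower by time appeared under 3 settings. They were Elovl6 with the filter at the 50th percentile, Elovl6 and Fasn with a variance trend, and Fasn without wild type at CT6 B. With 2 pools per group, differences near 0.1 on the log2 scale were mostly below what the test could call.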

Other observations

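Acaca had a second probe set, not used in the test, whose difference of CT18 minus CT6 was -0.20 in Gpr176-/- and 0.09 in wild type, where the one used gave -0.07 and -0.02. Its signals were 8.57 and 8.69 in Gpr176-/- at CT18, 8.82 and 8.84 in Gpr176-/- at CT6, 8.99 and 8.84 in wild type at CT18, and 8.82 and 8.82 in wild type at CT6. The knockout pools at CT18 were the lowest of the 8. The second probe sets of Fdft1 and Idi1 gave differences of the same sign as the ones used in both genotypes.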
